A study of Oryctolagus cuniculus with 20 samples.

Results

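Complement, coagulation and serpin genes were followed in rabbit arteries that had been grafted into a vein. The set took every gene whose symbol in the deposited table was a complement component (C1Q chains, C1R, C1S, C2 to C9 or a CF factor), a clotting factor, a thrombin receptor or a serpin. PLAT, PLAU, PLAUR, TFPI, PROCR and PROS1 were added by name, and SERPINH1, a collagen chaperone, was left out. Of 23669 genes in the table, 58 met this rule. It works on names and not on measured values, but it was chosen with earlier results of these data known. C3, CFD, F13A1, THBD (thrombomodulin) and TFPI2 are not among the 58, so their levels were not followed. Of 8 central and terminal complement genes looked for, 6 were found. Of 9 genes of clotting inhibitors and the protein C pathway, 6 were found. A filter on low values, at least 1 FPKM in at least 4 libraries, left 21 of the 58 and 8657 of all genes. FPKM counts sequenced fragments per kilobase of transcript and scales them to the size of the library, so that levels can be compared between genes of different length.

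The complement system is a cascade of plasma proteases that tags cells and debris, and the classical pathway starts when C1q, bound to the proteases C1r and C1s, recognises a target. Coagulation is a second cascade that ends in thrombin and fibrin, and it is held in check on the vessel wall by tissue factor pathway inhibitor and the protein C pathway. Fibrinolysis removes fibrin through plasmin, which the activators tPA and uPA generate. Serpins are a family of mostly secreted or cytosolic inhibitors of serine proteases.

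The libraries were total RNA of vessels of the rabbit (Oryctolagus cuniculus), in 5 groups of 4. The grafts were common carotid artery taken 14 or 30 days after transplantation into a vein, and the control of each day was the carotid artery labelled control group at that day, the opposite unoperated vessel. The remaining group was unoperated external jugular vein. All libraries carry the same treatment entry, no strain, age or allele is given, and each is a whole vessel with all its cell types. Each is also labelled with the human smooth muscle cell line name HASMC, although the tissue entries describe rabbit vessels. The labels call the libraries biological replicates without saying that each came from a separate animal, so p-values measure the spread between these samples, which may in part be technical.

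Several properties of the libraries bear on all results. No read counts were given, so depth is unknown, and between 6759 and 7740 genes reached 1 FPKM in a library. The FPKM of all genes summed to between 327806 and 671582 in a library, so the libraries do not share the same total. The main fit did not rescale them. Libraries of a group differed least in the controls of day 14, with a median SD of 0.0733 (log2 scale, 1265 well expressed genes), and most in the grafts of day 14, with 0.324. The other groups lay from 0.135 (vein) to 0.198 (controls of day 30). Each control of day 14 lay within a median absolute log2 difference of 0.0731 to 0.0769 of a weighted mean of the other 3. In each of the other groups the closest library lay at 0.0745 to 0.0840, and these 4 are called mixture-like here. Results are given with and without them, and with the controls of day 14 counted as 1 sample, where the call changes. Smooth muscle marker genes (7 of 8 found) summed to 8313 to 8831 FPKM in the controls of day 14, 617 to 935 in the grafts of day 14, 1355 to 1783 in the grafts of day 30 and 3587 to 3863 in vein. In whole tissue, fewer cells of a type and less RNA per cell cannot be told apart.

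The set as a whole divided sharply by level. Of the 58 genes, 37 did not pass the filter, 33 of them never reached 1 FPKM in any library, and 9 were listed at 0 in all 20. The highest value among the 37 was 1.94 FPKM, of SERPINB2. The genes under the filter include the clotting factors F5, F7, F8, F9, F10, F11, F12 and F13B, the terminal complement components C5, C6, C8A, C8B and C9, and SERPINC1 (antithrombin), SERPIND1, SERPINF2 and SERPINA3 to SERPINA12, most of which are made chiefly by the liver. Marker genes of hepatocytes, none of 7 past the filter, summed to at most 4.71 FPKM in any library.

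**Figure D1:**
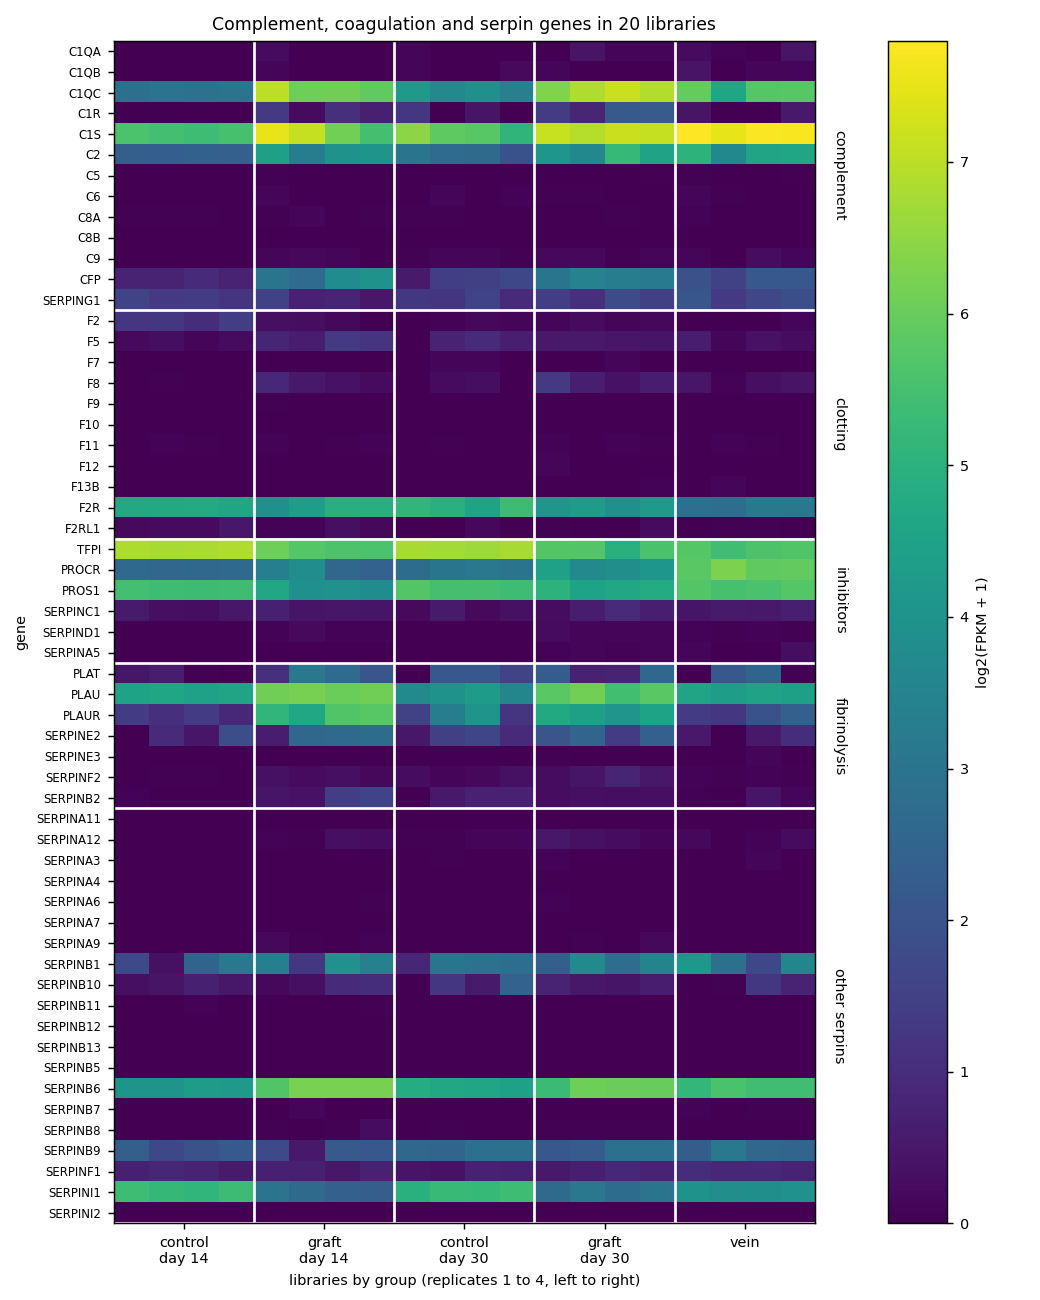
Level of 57 complement, coagulation and serpin genes (rows, grouped by role) in the 20 libraries (columns, by group), as log2(FPKM + 1) on the colour scale. Most rows stay dark in all groups, and C1S and TFPI are among the rows that are bright in every group, with C1S reaching 222 FPKM in vein.

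At day 14, 15 of the 21 tested genes differed between graft and opposite artery, 10 higher and 5 lower (limma, Benjamini-Hochberg adjusted p under 0.05 over 8657 genes). The same test called 53.5% of all genes, 36.5% higher and 17% lower, so that a call by itself was common in these data. The median log2 change was 0.83 for the 21 genes and 0.26 for all tested genes. In 13 of the 21 the grafts and the controls did not overlap, against 50.1% of all genes. C1R and F2 are among these 13 and among the 15 called. Each passed the filter only through the group where it is high, so neither is read as a result. With the libraries rescaled by median-of-ratios factors, the median of all genes moved to 0.04, and the split of the 15 called members became 8 higher and 7 lower. The split over all genes then moved from 3161 higher and 1473 lower to 2375 and 2126, and with values scaled to TPM it was 2136 and 1652. With the controls of day 14 counted as 1 sample, 10 members were called, 5 in each direction, and 2499 of all genes. Without the mixture-like libraries 13 members were called.

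At day 30, 14 of the 21 differed, 9 higher and 5 lower in the graft, against 37.6% of all genes, 26% higher and 11.6% lower. The median log2 change was 0.67 for the members and 0.18 for all genes, and 13 members did not overlap between the groups, against 34.5% of all genes. Median-of-ratios scaling moved the median of all genes to 0.04 and the split over all genes from 2253 higher and 1000 lower to 1745 and 1428, and it left the members at 9 higher and 5 lower. With values scaled to TPM, 1270 genes were called higher and 1256 lower. Without the mixture-like libraries, and without control replicates 2 and 3 of day 30, 13 members were called.

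**Figure D2:**
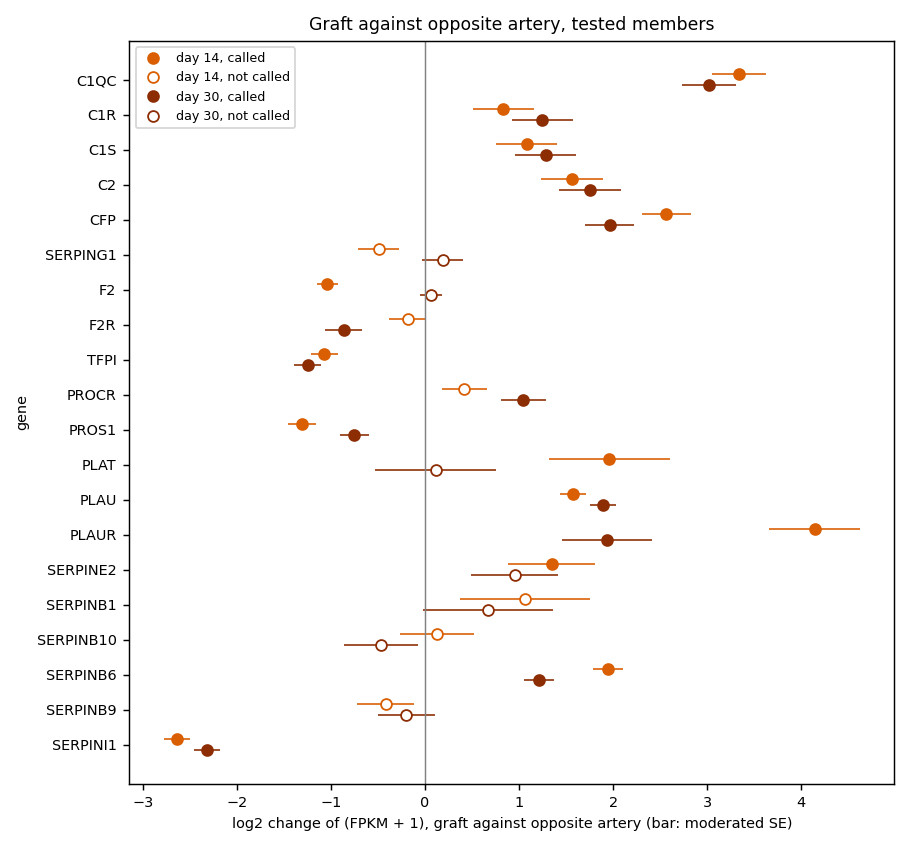
Log2 change of (FPKM + 1) of 20 tested genes in the graft against the opposite artery at day 14 and day 30 (points, n = 4 libraries a group; bars, moderated SE; filled, adjusted p under 0.05). PLAUR lies farthest to the right at day 14, at 4.14, and SERPINI1 farthest to the left on both days, at -2.64 and -2.32. C1R passed the filter only through the grafts and F2 only through the controls of day 14. Their filled points are not read as a result.

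The early classical pathway had 5 tested genes: C1QC, C1R, C1S, C2 and C4A, the last outside the set. Of these, 4 were called higher in the grafts at day 14 and 5 at day 30. The share of all genes called higher was 36.5% at day 14 and 26% at day 30. C1R is counted on both days, although it passed the filter only through the grafts. C4A did not pass at day 14, and the day 14 calls of C1R, C1S and C2 were lost in some settings, given with each gene. C1QC, which encodes a chain of the C1q recognition protein, read 6.40, 6.88, 6.49 and 7 FPKM in the controls of day 14 and 129, 67.2, 67.8 and 58.9 FPKM in the grafts of that day. It read 17.3, 11.8, 14.2 and 9.56 FPKM in the controls of day 30, 79.8, 115, 143 and 118 in the grafts of day 30, and 61.5, 22.9, 52.5 and 54.1 in vein. Every graft lay above every control artery, and every vein library above them too. The log2 change was 3.34 at day 14 (SE 0.28, limma adjusted p = 2.6e-08) and 3.02 at day 30 (SE 0.28, adjusted p = 2.1e-07), and vein exceeded the control arteries by 2.15 (SE 0.24, adjusted p = 2e-06). Grafts of day 30 were also above vein, by 1.30 (SE 0.28, adjusted p = 0.0017). The difference of 0.76 between grafts of day 14 and vein (adjusted p = 0.037) ended in 8 of 17 other settings, with adjusted p from 0.023 to 0.27 over all of them. Among these settings were leaving out graft replicate 1, the highest library (adjusted p = 0.14), and leaving out vein replicate 2, the lowest (adjusted p = 0.15).

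Macrophages are a known source of C1q, and the summed level of their markers was higher in the grafts than in the control arteries, as C1QC was. The 8 macrophage markers, 7 of them past the filter, summed to 9.88 to 11.1 FPKM in the controls of day 14 and 197 to 527 in the grafts of day 14. They summed to 5.09 to 25.4 FPKM in the controls of day 30, 122 to 275 in the grafts of day 30 and 28.3 to 55.6 in vein. At day 14, 5 of the 7 tested markers were called higher in the graft and 1 lower, against 36.5% and 17% of all genes. At day 30, 5 were called higher, against 26% of all genes. CD68, CSF1R and MSR1 reached 1 FPKM only in grafts, so they passed the filter only through the grafts. Calls of these genes are not read as a result. CD14 and CD68 made up most of the sums in the grafts, and CYBB went the other way, with 1.10 to 1.71 FPKM in the controls of day 14 and 0.160 to 0.640 FPKM in the grafts. CD68 and AIF1 were at 0 in both control groups and in vein. Within the grafts of day 14 the order differed: replicate 1, the highest in C1QC, summed to 272 FPKM, against 477 and 527 in replicates 3 and 4. The part of these cells in the level of C1QC was not tested. The other C1q chains did not follow: C1QA was at most 0.34 FPKM and C1QB at most 0.33 FPKM in any library. In the rabbit RefSeq annotation (mOryCun1.1) the genes of the 3 chains are neighbours, C1QB, C1QC and C1QA in that order. A value near 0 in this table can be a failed estimate, so the levels of C1QA and C1QB are not read as absence.

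C1S, the C1s protease, was the highest of the complement members. It read 47.1, 43.1, 40.8 and 45.5 FPKM in the controls of day 14 and 184, 138, 69.7 and 44.4 FPKM in the grafts of day 14. In the controls of day 30 it read 86.9, 57.8, 54.0 and 33.6 FPKM, in the grafts of day 30 140, 122, 142 and 137, and in vein 222, 180, 214 and 209. The grafts of day 14 spread from the level of their controls to that of vein, while the grafts of day 30 lay close together above all control arteries. The rise at day 30 was 1.28 on the log2 scale (SE 0.32, adjusted p = 0.0043), and vein was above the arteries by 2.04 (SE 0.28, adjusted p = 1.7e-05). The rise of 1.08 at day 14 (SE 0.32, adjusted p = 0.0091, range over 17 settings 0.00033 to 0.17) was lost with median-of-ratios scaling (0.063), with only the groups compared (0.056) and with the day 14 controls as 1 sample (0.17). They were lower than vein (log2 change -1.12, adjusted p = 0.0097), which was lost with only the groups compared (0.064) and without the mixture-like libraries (0.092).

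C1R, the partner protease of C1s, was low throughout, although its gene neighbours C1S in the same annotation. It was listed at 0 in all controls of day 14 and read 1.5, 0.18, 1.11 and 0.61 FPKM in the grafts of that day. At day 30 the controls read 1.35, 0, 0.34 and 0 FPKM and the grafts 1.57, 0.77, 3.67 and 3.72, so that the groups overlapped, and no vein library exceeded 0.45. C1R reached 1 FPKM in 6 libraries, 5 of them grafts, so it passed the filter only through the grafts. Its differences are therefore given as values without a test. The log2 change of (FPKM + 1) between graft and control at day 30 was 1.25, or 2.92 with a pseudocount of 0.1. C1R is 1 of the genes counted as called at day 14, at day 30 and for grafts of day 30 against vein. None of these calls is read as a result. The day 30 call was lost without the mixture-like libraries and without control libraries 2 and 3 of day 30. That of day 14 was lost in 10 of 16 other settings. The removal of any control of day 14, or of graft replicate 1 or 3, was among them.

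C2, the protease that joins C4 to form the C3 convertase, rose on both days. Its controls of day 14 read 4.12, 4.06, 4.38 and 4.22 FPKM and the grafts 20.5, 8.78, 15 and 15.4 FPKM. At day 30 the controls read 6.94, 5.68, 5.54 and 2.87 FPKM and the grafts 16.0, 11.4, 36.1 and 21.6, and vein read 31.6, 11.5, 22.7 and 23.7. No graft or vein library overlapped the control arteries. On the log2 scale C2 rose by 1.56 at day 14 (SE 0.33, adjusted p = 0.00064), 1.76 at day 30 (SE 0.33, adjusted p = 0.00037) and 1.98 for vein against the arteries (SE 0.29, adjusted p = 2.9e-05). With the controls of day 14 as 1 sample the day 14 call was lost (adjusted p = 0.055, range 0.0003 to 0.055). Neither graft group differed from vein past the threshold, with log2 changes of -0.53 at day 14 (95% interval -1.22 to 0.17) and -0.11 at day 30 (-0.80 to 0.59).

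CFP encodes properdin, which stabilises the convertase of the alternative pathway and is made by leukocytes. Its mean rose from 0.760 ± 0.127 to 10.1 ± 4.35 FPKM at day 14 (log2 change 2.57, SE 0.26, adjusted p = 2.3e-07). By day 30 the controls held 1.55 ± 0.744 and the grafts 8.60 ± 1.20 FPKM, a log2 change of 1.96 (SE 0.26, adjusted p = 1.1e-05). Vein held 2.91 ± 0.729 FPKM and was above the arteries and below both graft groups, differing from the grafts by 1.43 at day 14 (adjusted p = 0.00024) and 1.31 at day 30 (adjusted p = 0.00083). SERPING1, the C1 inhibitor, did not pass on either day: the controls held 1.60 ± 0.329 and 1.40 ± 0.426 FPKM and the grafts 0.910 ± 0.642 and 1.75 ± 0.553 FPKM. The grafts of day 14 were below vein, at 2.39 ± 0.736 FPKM (log2 change -0.85, adjusted p = 0.0042), a call lost without the mixture-like libraries (0.055).

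Further complement genes had no symbol in the table and so fell outside the set. CFI and C7 were named through their NCBI gene number, and C4A and CFB through their description. Factor I (CFI), a protease that inactivates C3b and C4b, went from 39.9 ± 4.79 to 27.1 ± 2.94 FPKM at day 14 (log2 change -0.54, SE 0.13, adjusted p = 0.0024, or 0.08 with the day 14 controls as 1 sample). It did not pass at day 30 (34.1 ± 5.42 against 29.2 ± 3.97 FPKM). C4A, a precursor of the C4 component, read 0.180, 8.09, 6.37 and 1.13 FPKM in the controls of day 30 and 27.1, 27.1, 56.1 and 43.1 in the grafts, with no overlap. It rose by 3.38 (SE 0.58, adjusted p = 0.00015), and at day 14 it did not pass (8.14 ± 1.53 against 23.4 ± 14.1 FPKM, log2 change 1.17, adjusted p = 0.099). C4A may share reads with a near-identical copy, so its level is uncertain. C7, of the membrane attack complex, was highest in vein, at 50.3 ± 18.1 FPKM against 13.9 ± 1.92 and 11.2 ± 4.65 in the controls (log2 change 1.91, SE 0.46, adjusted p = 0.0031). CFB, factor B, differed in no comparison past the threshold, with group means from 21 to 31.1 FPKM.

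**Figure D3:**
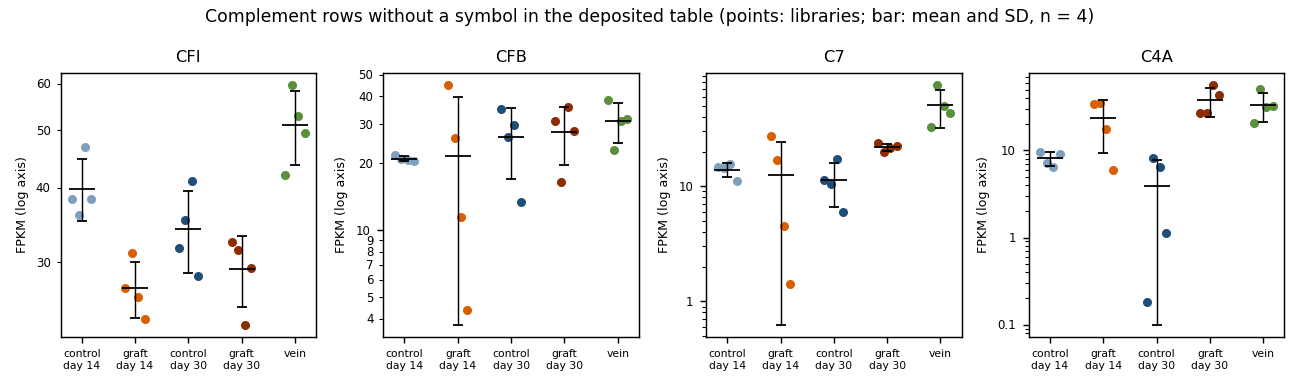
FPKM of 4 complement genes without a symbol in the table, on log axes (points, libraries; bars, mean and SD, n = 4 per group; a lower bar end is cut at 0.1 FPKM). C4A, C7 and CFB spread widely among the grafts of day 14, as CFB does from 4.39 to 44.9 FPKM.

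Within the grafts of day 14, replicates 1 and 2 were above replicates 3 and 4 in C1S (184 and 138 against 69.7 and 44.4 FPKM), C4A (34.4 and 35.5 against 17.7 and 6.03), C7 (27.1 and 16.7 against 4.49 and 1.41) and CFB (44.9 and 26.0 against 11.4 and 4.39). CFI stood in that order by less, with 27.1 and 31.1 against 26.2 and 24 FPKM. CFP ran the other way, with 7.16 and 5.65 against 12.8 and 14.7 FPKM. C1QC (129 and 67.2 against 67.8 and 58.9) and C2 (20.5 and 8.78 against 15 and 15.4) were mixed, as were C1R and SERPING1. In the same libraries, endothelial markers summed to 341 and 388 against 166 and 129 FPKM, and macrophage markers to 272 and 197 against 477 and 527. Fibroblast and adventitial markers summed to 711 and 629 against 500 and 481. Of these, COL14A1 (34.15 and 0.18 against 64.64 and 75.15) and PDGFRA (4.16 and 2.85 against 4.25 and 5.52) went the other way, and SFRP2 was mixed. Adipocyte markers summed to 244 and 356 against 791 and 906 through FABP4, while ADIPOQ went the other way. The part of these differences in the gene levels was not tested.

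Among the clotting genes, only F2 and the thrombin receptor F2R passed the filter. F2, prothrombin, was near the filter: it read 1.33, 1.38, 1.04 and 1.69 FPKM in the controls of day 14 and at most 0.24 FPKM in any other library. It passed the filter only through the controls of day 14, so its differences from that group are given as values without a test. The log2 change of (FPKM + 1) was -1.04 between graft and control at day 14 and -1.14 between the control groups, and the former was -2.69 with a pseudocount of 0.1. The controls of day 30 read 0 to 0.13 FPKM and vein 0 to 0.07. F2 is 1 of the genes counted as called at day 14, between the controls, for vein and for the difference of the graft effects, and none of these calls is read as a result.

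F2R, the main thrombin receptor of the vessel wall, read 25.0, 25.5, 26.0 and 23.1 FPKM in the controls of day 14 and 14.2, 19.1, 28.5 and 28.9 FPKM in the grafts. At day 30 the controls read 34.2, 29.8, 21.8 and 39.3 FPKM and the grafts 15.7, 18.5, 14.2 and 17.5, and vein read 6.24, 5.93, 7.85 and 7.64. The groups overlapped at day 14 and not at day 30, and vein lay below every artery and graft. F2R fell by 0.86 at day 30 (SE 0.20, adjusted p = 0.0019) and was lower in vein than in the control arteries (log2 change -1.86, SE 0.17, adjusted p = 1.4e-07). At day 14 the log2 change was -0.19 (95% interval -0.60 to 0.23, adjusted p = 0.45). With median-of-ratios scaling it was -0.47, past the threshold (adjusted p = 0.033), and without graft replicate 1 it was 0.01. The difference between the days did not pass (-0.68, adjusted p = 0.11).

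The tested genes that hold clotting in check on the vessel wall, without THBD and TFPI2, moved in different directions. TFPI, which blocks tissue factor with factor VIIa, read 115, 110, 110 and 117 FPKM in the controls of day 14 and 66.9, 52.5, 48.6 and 46.9 FPKM in the grafts. In the later vessels the values were 110, 105, 98.9 and 108 FPKM in the controls and 51.1, 51.5, 30.0 and 46.4 in the grafts, and in vein 52.6, 41.4, 48.0 and 49.9. Grafts of both days lay around the level of vein and below all control arteries. On the log2 scale TFPI changed by -1.07 at day 14 (SE 0.14, adjusted p = 5.7e-06) and by -1.25 at day 30 (SE 0.14, adjusted p = 2.3e-06). Vein was lower than the arteries (log2 change -1.17, adjusted p = 8.1e-07). Against vein the grafts differed by 0.15 at day 14 (95% interval -0.15 to 0.45) and -0.12 at day 30 (-0.43 to 0.18), neither past the threshold.

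PROCR, the endothelial receptor that presents protein C for activation, was highest in vein. It read 5.40, 4.92, 5.17 and 5.40 FPKM in the controls of day 14, 9.36, 13.1, 4.99 and 4.48 in the grafts of day 14, and 5.71, 7.21, 7.72 and 7.07 in the controls of day 30. Day 30 grafts held 21.3, 11.7, 13.6 and 16.1 FPKM, and vein 55.4, 76.3, 58.6 and 59.9. Vein lay above all other libraries, and the grafts of day 30 above all control arteries. Vein exceeded the arteries by 3.17 on the log2 scale (SE 0.21, adjusted p = 1.8e-09), and the grafts of day 30 exceeded their controls by 1.05 (SE 0.24, adjusted p = 0.0019). At day 14 the change was 0.42 (95% interval -0.08 to 0.92, adjusted p = 0.15), and it reached 0.62 without graft replicate 4 (adjusted p = 0.031). Endothelial markers (7 of 8 past the filter) summed to 54.7 to 57.8 FPKM in the controls of day 14, 129 to 388 in the grafts of day 14, 70.2 to 161 in the controls of day 30, 382 to 430 in the grafts of day 30 and 507 to 616 in vein. VWF made up most of the sum in vein. Without it the other markers summed to 102 to 106 FPKM in vein, below the 251 to 280 of the grafts of day 30. At day 14, 4 of the 7 tested markers were called higher in the graft and 1 lower, against 36.5% and 17% of all genes. PECAM1 was at 0 in both control groups, in 3 of 4 grafts of each day and in 2 of 4 vein libraries. The part of endothelial content in the level of PROCR was not tested.

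PROS1 encodes protein S, the cofactor of activated protein C. It read 43.3, 40.2, 39.7 and 40.4 FPKM in the controls of day 14 and 24.3, 14, 14.4 and 13 FPKM in the grafts. The day 30 values were 50.9, 43.9, 44.1 and 40.9 FPKM in the controls and 32.3, 21.9, 24.8 and 26.9 in the grafts, and in vein 51.8, 45.5, 46.1 and 52.2. All grafts lay below all unoperated vessels. PROS1 changed by -1.31 at day 14 (SE 0.15, adjusted p = 1.1e-06) and -0.75 at day 30 (SE 0.15, adjusted p = 0.0007). Unlike TFPI, PROS1 was not lower in vein than in the control arteries (log2 change 0.19, 95% interval -0.09 to 0.46), and the grafts were below vein at day 14 (log2 change -1.56, adjusted p = 2.7e-07) and at day 30 (log2 change -0.87, adjusted p = 0.00026).

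**Figure D4:**
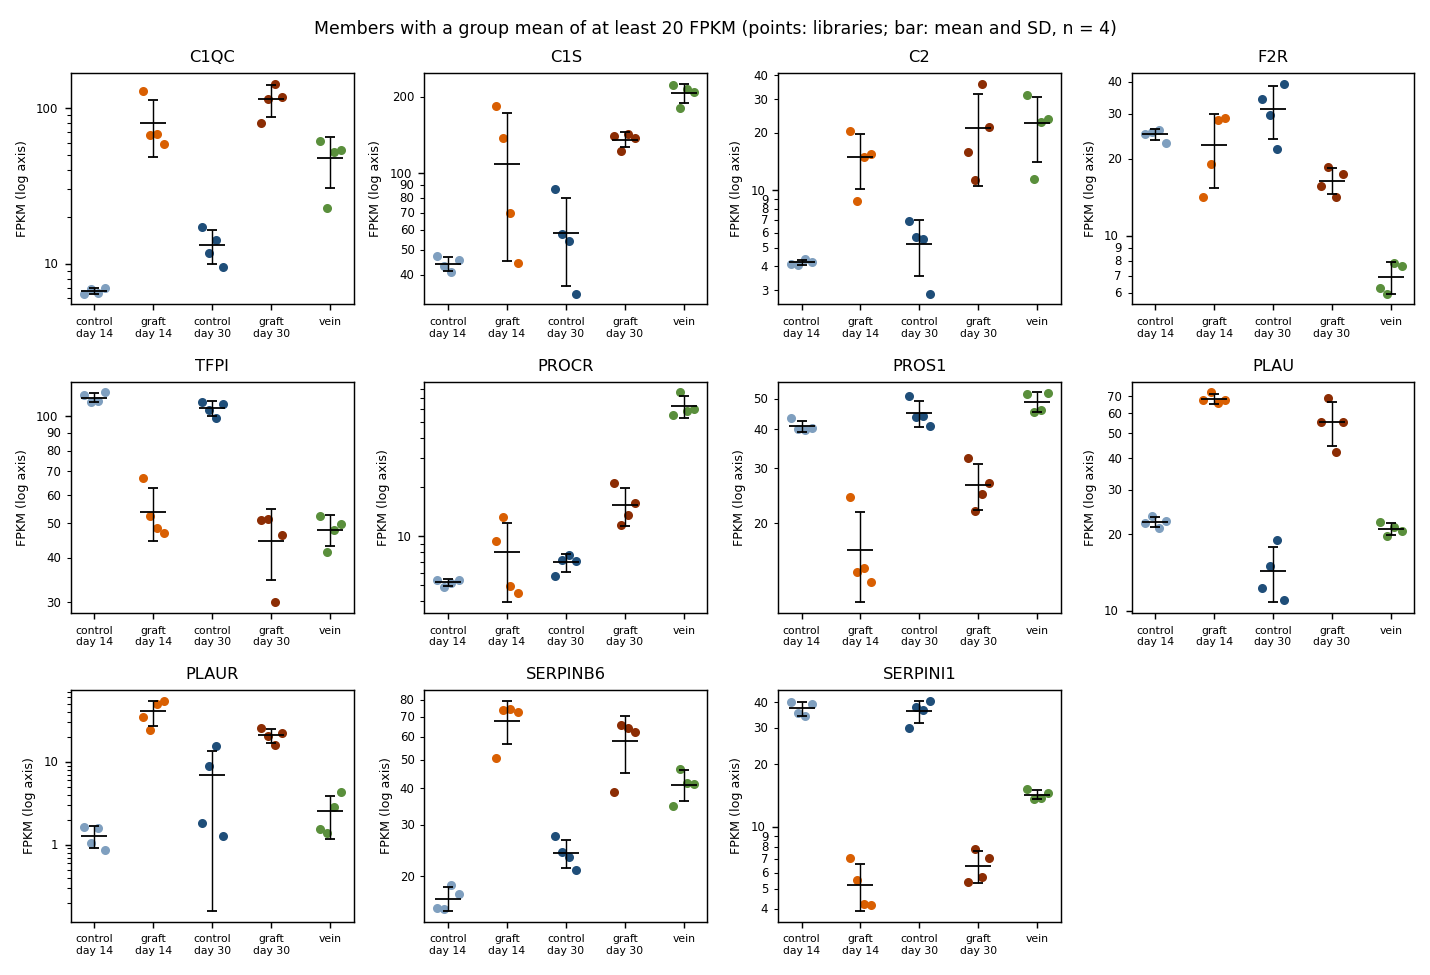
FPKM of 11 members with a group mean of at least 20 FPKM in every library, on log axes (points, libraries; bars, mean and SD, n = 4 per group). TFPI of the grafts lies near the level of vein, PROS1 of the grafts lies below it, and PROCR is highest in vein, at 55.4 to 76.3 FPKM.

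Of the genes of fibrinolysis, PLAU and PLAUR rose on both days. PLAU encodes uPA, the activator bound to the cell surface. It read 22.1, 23.6, 21.1 and 22.6 FPKM in the controls of day 14 and 67.9, 72.7, 65.7 and 67.8 FPKM in the grafts. At day 30 the controls read 12.3, 15, 19 and 11 FPKM, the grafts 55.3, 69.1, 42.2 and 55.3, and vein 22.3, 19.8, 21.4 and 20.7. All grafts lay above all unoperated vessels. PLAU rose by 1.57 at day 14 (SE 0.14, adjusted p = 5.2e-08) and by 1.89 at day 30 (SE 0.14, adjusted p = 1.6e-08). Vein did not differ from the arteries past the threshold (0.23, 95% interval -0.02 to 0.49), and both graft groups were above vein, by 1.66 (adjusted p = 6e-08) and 1.34 (adjusted p = 1.7e-06). In the control arteries PLAU was lower at day 30 (log2 change -0.64, adjusted p = 0.0072), which was lost with TPM scaling (0.11) and with the day 14 controls as 1 sample (0.47).

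PLAUR, the receptor that holds uPA on the cell surface, had the largest rise of the set at day 14. It read 1.62, 1.06, 1.61 and 0.860 FPKM in the controls of day 14 and 34.4, 24.5, 50.2 and 53.8 FPKM in the grafts. The controls of day 30 read 1.84, 8.87, 15.5 and 1.27 FPKM, the grafts 25.5, 20.8, 15.8 and 22.1, and vein 1.55, 1.37, 2.88 and 4.28. The grafts lay above all other libraries, narrowly so at day 30, where control replicate 3 stood just under the lowest graft. PLAUR rose by 4.14 on the log2 scale at day 14 (SE 0.48, adjusted p = 1.1e-06) and 1.93 at day 30 (SE 0.48, adjusted p = 0.0038). Without control replicates 2 and 3 of day 30 the latter was 3.10. The effect was smaller at day 30 (difference -2.21, SE 0.68, adjusted p = 0.039), a call lost in 19 of 26 other settings, with a range of 0.01 to 0.33, and the difference was -1.04 without those controls. Leaving out any 1 graft or control library ended it (0.053 to 0.081), except for graft replicates 1 and 2 of day 14 and control replicates 1 and 4 of day 30. Macrophages and neutrophils carry this receptor. Control replicates 2 and 3 of day 30, the highest controls in PLAUR, summed neutrophil markers to 615 and 1014 FPKM. The sums were 11.8 and 370 in replicates 1 and 4 and 359 to 408 in the controls of day 14. Grafts, where PLAUR was higher, summed neutrophil markers to 72.6 to 153 FPKM at day 14 and 87.6 to 207 at day 30. S100A8 and S100A9 made up most of these sums, and MPO was at 0 in all controls. CSF3R read 2.4 and 5.74 FPKM in control replicates 2 and 3 of day 30 and 2.96 in replicate 4. Macrophage markers summed to 272, 197, 477 and 527 FPKM in the grafts of day 14, in the same order as PLAUR. In the controls of day 30 they summed to 5.09, 19, 25.4 and 10 FPKM, again highest in replicates 2 and 3. The grafts of day 30 differed, with sums of 122, 275, 251 and 225 FPKM and PLAUR highest in replicate 1. The part of macrophages or neutrophils in the level of PLAUR was not tested.

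PLAT, which encodes tPA, the activator released by endothelium, was low and scattered. It read 0.39, 0.53, 0.04 and 0 FPKM in the controls of day 14 and 1.08, 7.62, 5.60 and 3.28 FPKM in the grafts. At day 30 it read 0, 3.46, 3.39 and 2.04 FPKM in the controls and 3.85, 0.64, 0.7 and 5.04 in the grafts. The rise at day 14 (log2 change 1.96, SE 0.64, adjusted p = 0.016) was lost without graft replicate 2 (0.051) and with the day 14 controls as 1 sample (0.22). The day 30 difference did not pass. SERPINE2, protease nexin 1, which inhibits thrombin and uPA, read 0, 0.9, 0.39 and 2.64 FPKM in the controls of day 14 and 0.55, 5.13, 5.31 and 5.74 FPKM in the grafts. Its rise of 1.35 on the log2 scale (SE 0.46, adjusted p = 0.02) was lost in 9 of 16 other settings, with a range of 0.00074 to 0.23, among them the removal of control replicates 1 and 3 and of graft replicates 2, 3 and 4, with adjusted p from 0.054 to 0.075.

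Among the serpins, SERPINI1 and SERPINB6 changed on both days. SERPINI1 encodes neuroserpin, an inhibitor of tPA best known from neurons. It read 40.2, 35.6, 34.1 and 39.3 FPKM in the controls of day 14 and 7.04, 5.52, 4.25 and 4.19 FPKM in the grafts. At day 30 it read 30.1, 37.7, 36.6 and 40.4 FPKM in the controls and 5.42, 7.77, 5.70 and 7.02 in the grafts, and in vein 15.2, 13.6, 13.8 and 14.5. Grafts, vein and control arteries formed 3 ranges with no overlap, in rising order. The log2 change was -2.64 at day 14 (SE 0.14, adjusted p = 7.7e-11) and -2.32 at day 30 (SE 0.14, adjusted p = 1.1e-09), and vein was lower than the arteries (log2 change -1.30, adjusted p = 1.5e-07). Against vein the grafts were lower on both days (log2 change -1.31, adjusted p = 6.7e-07, and log2 change -1.04, adjusted p = 1.6e-05). Nerve and Schwann cell markers (5 of 5 past the filter) summed to 16.5 to 46.3 FPKM in the controls, 0.0700 to 0.620 in the grafts and 8.84 to 11.3 in vein. Smooth muscle markers stood in the same order. The part of either in the level of SERPINI1 was not tested.

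SERPINB6, a cytosolic inhibitor of cathepsin G, read 15.5, 15.5, 18.7 and 17.4 FPKM in the controls of day 14 and 50.8, 74.0, 74.4 and 72.8 FPKM in the grafts. At day 30 the controls read 27.5, 24.2, 23.2 and 21.1 FPKM, the grafts 38.8, 65.9, 64.0 and 62.2, and vein 34.7, 46.7, 41.6 and 41.4. Replicate 1 was the lowest graft on both days, and all grafts lay above all control arteries. SERPINB6 rose by 1.94 at day 14 (SE 0.16, adjusted p = 2e-08), 1.21 at day 30 (SE 0.16, adjusted p = 1.1e-05) and 0.99 for vein against the arteries (adjusted p = 2e-05). The effect was smaller at day 30 (difference -0.73, SE 0.23, adjusted p = 0.04), which was lost in 17 of 26 other settings (range 0.011 to 0.33). Among these was leaving out control replicates 1, 2 or 4 or graft replicates 2, 3 or 4 of day 14, control replicates 1, 2 or 3 or graft replicate 1 of day 30 (0.052 to 0.077). Day 14 grafts were above vein by 0.70 (adjusted p = 0.0017, lost with TPM scaling at 0.19). Those of day 30 were above it by 0.46 (adjusted p = 0.035), lost in 10 of 17 other settings (range 0.0017 to 0.29), with graft replicate 2, 3 or 4 or vein replicate 1, 3 or 4 left out among them (0.06 to 0.11).

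SERPINB1, SERPINB9 and SERPINB10 did not pass the threshold between graft and control on either day. SERPINB1, an inhibitor of neutrophil proteases, ranged widely within groups, from 0.270 to 7.77 FPKM in the controls of day 14 and from 1.38 to 14.4 FPKM in the grafts of that day. SERPINB9, the granzyme B inhibitor, had group means from 2.39 (grafts of day 14) to 5.63 FPKM (controls of day 30). SERPINB10 had group means of 0.405 to 1.58 FPKM. The 95% interval of the log2 change at day 14 ran from -0.37 to 2.51 for SERPINB1, from -1.04 to 0.20 for SERPINB9 and from -0.69 to 0.95 for SERPINB10.

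Between the graft groups, 4 of 21 members differed, all higher at day 30, against 16.3% of all genes, 8.01% higher and 8.31% lower. Among these were PROCR (log2 change 0.97, SE 0.24, adjusted p = 0.01), PROS1 (0.69, SE 0.15, adjusted p = 0.0053) and SERPINB9 (0.90, SE 0.30, adjusted p = 0.0498). Over all genes 693 were higher and 719 lower, against 750 and 78 with TPM scaling. For 1 member the graft groups did not overlap, against 15.7% of all genes. The calls of PROCR and PROS1 were lost with only the groups compared (0.14 and 0.11) and without the mixture-like libraries (0.13 and 0.081). That of SERPINB9 was lost in 11 of 17 other settings, with a range of 0.035 to 0.22, and its change was 0.53 without graft replicate 2 of day 14. Graft replicates 1 and 2 of day 14 and 1, 3 and 4 of day 30 were the libraries whose removal ended it (0.051 to 0.13).

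The control arteries differed between the days in 2 members, PLAU and F2, both lower at day 30, against 10.7% of all genes, 6.28% higher and 4.45% lower. The call of F2 came from the group that let it pass the filter. With TPM scaling the direction turned: C1QC, PROCR and SERPINB6 were called higher (adjusted p = 0.022, 0.045 and 0.045), and only F2 lower. Over all genes the split moved from 544 higher and 385 lower to 846 and 137 with TPM scaling, and to 513 and 549 with median-of-ratios scaling. The control groups did not overlap in 8 members, F2 among them, against 22.8% of all genes. The difference of the graft effects passed for 3 members, F2, PLAUR and SERPINB6, against 12.9% of all genes, 5.38% higher and 7.57% lower. This is close to the share of the members, 14.3%. Over all genes 466 were higher and 655 lower, against 605 and 512 with median-of-ratios scaling and 288 and 269 with TPM scaling.

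Vein differed from the control arteries in 11 members, 6 higher and 5 lower, against 37.1% of all genes, 25.2% higher and 12% lower. C1QC, C1S, C2, CFP, PROCR and SERPINB6 were higher in vein, and F2R, TFPI and SERPINI1 were among those lower. With median-of-ratios scaling the split over all genes moved from 2178 higher and 1036 lower to 1627 and 1509, with the members still at 6 and 5. Set against vein, 13 members differed in the grafts of day 14 (7 higher, 6 lower, against 43.3% of all genes, 25.9% higher and 17.5% lower) and 12 in the grafts of day 30 (9 higher, 3 lower, against 33.4%, 19.2% higher and 14.2% lower). With TPM scaling the split over all genes turned, from 2239 higher and 1511 lower to 1093 and 1979 at day 14 and from 1664 and 1230 to 1054 and 1198 at day 30, and the members were at 5 higher and 6 lower and at 8 and 4. PLAU, PLAUR, CFP, C1QC, F2R, SERPINB6 and SERPINE2 were higher in both graft groups than in vein, and PROCR, PROS1 and SERPINI1 lower. C1R, which passed the filter only through the grafts, is counted as higher than in vein at day 30 (log2 change 1.42), a call not read as a result. These comparisons share the vein and control libraries, so they are given side by side only. The call of SERPINE2 at day 30 (1.56, adjusted p = 0.015) was lost without the mixture-like libraries (0.057), and that of SERPINB9 at day 14 (lower in the graft, adjusted p = 0.012) with only the groups compared (0.071).

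Genes of the same pathways outside the set were followed as 3 lists. Of 7 tested complement receptors and regulators, 3 were called higher and 2 lower at day 14, against 36.5% and 17% of all genes. At day 30, 3 were called higher and 0 lower, against 26% and 11.6%. CD93, a receptor of endothelial and myeloid cells once described as binding C1q, rose from 1.86 ± 0.679 to 43.6 ± 22.1 FPKM at day 14 (log2 change 3.85, SE 0.28, adjusted p = 4.3e-09), and vein held 40.05 ± 2.22 FPKM. VTN, vitronectin, which binds the terminal complement complex, was listed at 0 in all controls of day 14 and read 1.34, 2.38, 3.24 and 3.82 FPKM in the grafts. It was at most 0.02 FPKM in all libraries that were not grafts, so it passed the filter only through the grafts and gets no test here. VTN is among the genes counted as higher on both days, and neither call is read as a result. CD59, which blocks the membrane attack complex, fell from 32.6 ± 1.66 to 14.6 ± 3.44 FPKM at day 14 (log2 change -1.13, SE 0.22, adjusted p = 0.00032). At day 30 it did not pass (51.4 ± 11.1 against 39.7 ± 12.7 FPKM). MASP1, a protease of the lectin pathway, fell from 1.31 ± 0.372 to 0.0600 ± 0.0548 FPKM at day 14 (log2 change -1.11, adjusted p = 7.4e-05).

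Of 11 other tested clotting and fibrinolysis genes, 5 were called higher and 4 lower at day 14, against 36.5% and 17% of all genes. At day 30, 4 were called higher and 1 lower, against 26% and 11.6%. F3, tissue factor, which starts coagulation, fell from 50.5 ± 1.05 to 2.94 ± 0.249 FPKM at day 14 (log2 change -3.71, SE 0.32, adjusted p = 2.9e-08). At day 30 it did not differ past the threshold (108 ± 49.5 against 98.3 ± 42.4 FPKM), and the effects of the days differed (3.54, SE 0.45, adjusted p = 0.00011). VWF, the adhesive protein of endothelium and platelets, rose from 7.02 ± 0.224 to 64.3 ± 23.0 FPKM at day 14 (log2 change 2.96, adjusted p = 6.4e-09) and from 13.1 ± 4.95 to 132 ± 13.9 FPKM at day 30 (log2 change 3.30, adjusted p = 5.5e-09). S100A10, part of a receptor for plasminogen and tPA, rose from 112 ± 6.13 to 486 ± 94.5 FPKM at day 14 (log2 change 2.09, adjusted p = 1.3e-09). ANXA5, annexin V, rose from 171 ± 1.52 to 312 ± 55.9 FPKM at day 14 (log2 change 0.84, adjusted p = 5e-05). Its rise at day 30 (0.54, adjusted p = 0.0046) was lost with TPM scaling (0.38) and without control replicates 2 and 3 (0.06).

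Of 5 tested platelet genes, 1 was called higher and 1 lower on each day. Of all genes, 36.5% were called higher and 17% lower at day 14, and 26% and 11.6% at day 30. ITGA2B, the platelet integrin chain, fell from 10.5 ± 0.495 to 2.65 ± 1.20 FPKM at day 14 (log2 change -1.71, SE 0.19, adjusted p = 7.1e-07) and was as low in vein (2.26 ± 0.279 FPKM). TBXAS1, thromboxane synthase, which macrophages also express, read 0.142 ± 0.00957 FPKM in the controls and 2.90 ± 1.15 in the grafts of day 14. It passed the filter through the grafts and vein, with no control at 1 FPKM, and gets no test here. TBXAS1 is the platelet gene counted as higher at day 14, and that call is not read as a result. SELP and PPBP did not pass at day 14, with means of 1.76 ± 0.129 in the controls and 4.72 ± 0.982 FPKM in the grafts for SELP. PPBP was listed at 0 in 3 of the 4 controls and in 2 of the 4 grafts of day 14, and read at most 2.15 FPKM there.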

How the data were processed

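The authors deposited 1 table of FPKM for 24964 transcripts in 20 libraries, with no read counts. Per the submitters' processing notes, fastp, HISAT2, StringTie, RSEM and DESeq2 were used; versions and the genome build are not given in the sources used here, so no coordinates or sequences are printed. Total RNA was extracted with TRIzol, per the labels' protocols.

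FPKM was summed per gene ID (23669 genes), and the 8657 genes that reached 1 FPKM in 4 or more libraries were tested with limma 3.58.1 (R 4.3.3). The fit used log2(FPKM + 1), a mean per group over all 20 libraries, moderated variances that follow the mean level, and two-sided p-values with Benjamini-Hochberg adjustment over these 8657 genes and a cutoff at 0.05. Fold changes on this scale understate the change of low genes. Errors of FPKM are SD over 4 libraries, and SE is limma's moderated one. Of the tested genes, 1981 were listed at 0 in at least 1 library.

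Members and lists were chosen with earlier results of these data known. Members with a group mean of at least 20 FPKM are described with every library, and the others by group means or ranges, except that values by library are also given for C1R, F2, PLAT and SERPINE2, chosen after their values were seen. Some genes of the set and the lists are not reported here. From each list outside the set, the 4 genes with the smallest adjusted p at day 14 are named. The procedure was tested on simulated data. Vein columns were matched to samples by the library name in the labels. Tables and figures used Python 3.11.15, numpy 2.4.6, pandas 2.3.3 and matplotlib 3.10.9.

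Alternatives were a smaller pseudocount (0.1), no low-value filter or one at 5 FPKM, scaling by median-of-ratios or to TPM, only the groups compared, each library left out and the replicate number as a block. Added after seeing the data were the day 14 controls as 1 sample, a fit that leaves out the 4 mixture-like libraries (weights in steps of 0.05, genes averaging at least 10 FPKM), and control libraries 2 and 3 of day 30 left out.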

Additional observations from a re-analysis of the deposited data

Results flagged for a closer look

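In 7 of 99 sets of 4 libraries (a member in a group), 1 library stood apart from the other 3 by Dixon's criterion, which chance meets in about 1 set in 20. Graft replicate 1 of day 14 accounted for 4 of them: it was the highest in C1QC (128.74 FPKM) and PROS1 (24.27 FPKM) and the lowest in SERPINB6 (50.83 FPKM) and SERPINE2 (0.55 FPKM). Graft replicate 1 of day 30 was the lowest in SERPINB6 (38.76 FPKM). Vein replicate 4 was the highest in F2 (0.07 FPKM, where the other vein libraries were at 0). Control replicate 3 of day 14 was the highest in CFP (0.95 FPKM).

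The graft effect differed between day 30 and day 14 by limma's test of the difference for F2 (1.10 on the log2 scale), PLAUR (-2.21) and SERPINB6 (-0.73). F2 passed the low-value filter only through the controls of day 14, so its value restates the level of that group.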

How the results depend on the processing

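Of 74 called results of the members, 54 kept the call in every setting that gave a value, 20 lost it in at least 1, and none of the called values changed sign. For the other genes named, 44 of 59 kept it in every setting. The difference of the graft effects was called for 3 members, and for 1 with TPM scaling, 1 with only the groups compared, 1 with the day 14 controls as 1 sample and 1 without the mixture-like libraries (1 to 6 with a library left out). Grafts of day 30 against day 14 gave 4 calls, 0 with only the groups compared and 1 without the mixture-like libraries (3 to 6 with a library left out). Controls of day 30 against day 14 gave 2 calls, 4 with TPM scaling, 6 with only the groups compared and 1 with the day 14 controls as 1 sample (2 to 4 with a library left out). The cause was not tested. With a library left out, the counts were 13 to 15 for the graft effect at day 14, 14 to 14 at day 30, 11 to 12 for vein, 12 to 14 for grafts of day 14 against vein and 11 to 12 for those of day 30.

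Values under the threshold changed sign as follows: PLAUR in vein to 0.48 without control libraries 2 and 3 of day 30, SERPINI1 and TFPI between the controls to 0.18 and 0.12 with TPM scaling, and TFPI of day 14 grafts against vein to -0.17 with TPM scaling. With a library left out, values under the threshold crossed 0 in C1S (difference of graft effects, -0.15 to 0.52), C2 (difference, -0.088 to 0.44; day 30 graft against vein, -0.39 to 0.13), F2R (day 14, -0.32 to 0.0103), PLAUR (vein, -0.33 to 0.15), SERPINI1 (between the controls, -0.10 to 0.0365) and TFPI (difference, -0.25 to 0.00128; day 30 graft against vein, -0.20 to 0.0527).

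The labels do not say whether same-numbered graft and control libraries came from the same animal, and the main fit did not pair them. Deviations of same-numbered graft and control libraries correlated across 4084 genes at 0.18, -0.13, -0.14 and 0.05 at day 14. At day 30 they correlated at -0.06, -0.31, 0.04 and -0.06. Libraries with different numbers correlated at -0.27 to 0.27. With 4 libraries a group these values cannot decide whether the numbers pair the samples. With the replicate block, 16 members were called at day 14 and 14 at day 30, 3 for the difference (PROS1 gained at adjusted p = 0.041 and PLAUR lost at 0.052), 4 between the grafts, 3 between the controls, 11 for vein, and 13 and 12 for grafts against vein. Read depth is unknown, which limits what can be said of genes under 1 FPKM.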
